A study of Capra hircus with 9 samples.

Results

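Gene expression in the rumen epithelium of goats fed the HC diet was compared with that of goats fed the MC diet, by RNA sequencing of 3 libraries per diet. These 6 libraries, chosen by the diet named in their titles, belong to a series of 9 that also holds 3 libraries of an LC diet. All groups were of the same tissue and the same age, 4 months, and they differed in the labels only in diet, which the series describes as a type of concentrate feed without explaining the letters. The labels do not state that the libraries of a diet came from separate animals, so p-values measure only the spread between these samples, which may be technical. Values are FPKM, a fragment count divided by the length of the transcript and by the number of fragments mapped in that library, and differences are HC minus MC on the scale of log2(FPKM + 1), where 1 is a doubling for a well expressed gene. A gene passed the test at an adjusted p under 0.05 in limma, a linear model fitted across all genes and all 9 libraries, with the Benjamini-Hochberg correction. "Higher" and "lower" refer below to genes that passed it, and all other genes are given by their values.

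The rumen is the fermentation chamber of ruminants, and its epithelium is a stratified, keratinized squamous tissue. Basal cells divide and anchor the tissue, suprabasal cells are joined by tight junctions and desmosomes, and the outer cells cornify. The epithelium absorbs the short-chain fatty acids that microbes release from feed, turns much of the butyrate into ketone bodies, and moves sodium, protons, bicarbonate and urea. A layer of smooth muscle lies under the mucosa, and its RNA can enter a sample of the lining.

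The basal keratin genes KRT5 and KRT14 marked all libraries as stratified epithelium. KRT5 stood at 2928, 4803 and 4092 FPKM in the HC libraries and 3759, 3768 and 4412 FPKM in the MC libraries, and the HC range enclosed the MC range. KRT14 stood at 1116, 1287 and 1429.6 FPKM in the HC libraries and 1066, 1043 and 1110.3 FPKM in the MC libraries. Neither passed the test (limma adjusted p = 0.915 for KRT5 and 0.416 for KRT14). Pearson correlations of log2 values across genes, which are not independent replicates, were 0.986 to 0.992 within HC, 0.987 to 0.993 within MC and 0.955 to 0.972 between them. The files list 15123 to 15693 genes per HC library and 15852 to 16193 per MC library, and hold no read counts, so absolute depth is unknown. From the steps between the values of low genes, the depth of the HC and MC libraries relative to HC1 was between 0.847 in HC2 and 1.23 in MC3. Cytosolic ribosomal protein genes held 32.1% to 35.2% of the summed FPKM in HC and 28.4% to 30.8% in MC. The HC tables also differ in layout from the MC tables, so a difference in how they were made and a difference in diet cannot be told apart.

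Of 11668 genes tested, 2917 (25.0%) passed: 933 (8.0%) were higher in HC and 1984 (17.0%) were lower. A change of at least 1 on the log2 scale was reached by 394 of them, of which 154 were higher and 240 lower in HC. The 3 HC libraries lay entirely above or below the 3 MC libraries for 5413 genes (46.4%). Which direction prevailed depended on the scale. On the deposited values the median difference over all genes was -0.10 and 31.98% of the genes that passed were higher in HC. After median-of-ratios scaling, which centres the genes, the split was 1513 higher and 1319 lower (53.4% higher), and after quantile normalization it was 1553 and 1296 (54.5% higher). With every library rescaled to the same total, 538 genes were higher and 2767 lower (16.3% higher), with a median of -0.25. All named genes that passed kept their direction under median-of-ratios scaling and under rescaling to the same total.

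On the deposited scale MC was more often the highest diet, and HC more often the lowest, than the reverse. All 3 MC libraries stood above every HC and LC library for 1762 genes (15.1%), and all 3 HC libraries stood above every other library for 494 (4.23%). All 3 HC libraries stood below every MC and LC library for 1380 genes (11.8%), and all 3 MC libraries stood below every other library for 987 (8.46%). Of the 1984 genes lower in HC than in MC, the LC mean lay between the other means for 1166, below both for 522 and above both for 296. Of the 933 genes higher in HC, the LC mean lay between them for 429, above both for 389 and below both for 115.

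Smooth muscle genes were among those with the largest differences, and DES, the intermediate filament protein of muscle, had the largest of all genes tested. DES stood at 1.97, 1.28 and 5.47 FPKM in the HC libraries and 784, 1232 and 383 FPKM in the MC libraries, and LC1, LC2 and LC3 had 696, 428 and 1.44 FPKM. All MC libraries lay far above all HC libraries, and LC3 resembled HC while LC1 and LC2 resembled MC. The difference was -7.67 ± 2.14 (SE), limma adjusted p = 0.0445, and it was -7.67, limma adjusted p = 2.05e-04 when only the HC and MC libraries were fitted. ACTG2, the enteric smooth muscle actin, stood at 6.86, 5.91 and 9.704 FPKM in the HC libraries and 617, 739.7 and 231 FPKM in the MC libraries. MYH11, the smooth muscle myosin heavy chain, stood at 4.39, 5.69 and 6.89 FPKM in the HC libraries and 193, 293 and 86.01 FPKM in the MC libraries. For both genes the lowest MC library, MC3, had over 10 times the FPKM of the highest HC library. Because LC1, LC2 and LC3 spread as widely for these genes as the diets did, ACTG2 (-5.83 ± 1.93 (SE), limma adjusted p = 0.0724) and MYH11 (-4.69 ± 1.59 (SE), limma adjusted p = 0.0771) did not pass in the fit of 9 libraries, and both passed in the fit of HC and MC alone (-5.83, limma adjusted p = 1.27e-04 for ACTG2 and -4.69, limma adjusted p = 2.58e-04 for MYH11). Both share their locus with another gene in the files, so their values are uncertain.

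Over the whole smooth muscle list, 43 of 55 genes were tested, with a median difference of -2.07. In the fit of 9 libraries 11 were lower in HC and 0 higher, against 17.0% and 8.0% of all genes, and in the fit of HC and MC alone 36 were lower and 0 higher. The count of lower members was 30 without LC1, 35 without LC3, 4 without LC2, 2 without MC1, and 3 without HC1, HC2, HC3 or MC2. The summed FPKM of the list was 0.219% to 0.262% of a library in HC and 0.4703% to 0.941% in MC, and no listed member was at 0 in all 6 libraries. Among the other members with large changes were TPM1, a tropomyosin (-3.81), NEXN, an actin-binding protein (-2.77), LIMS2 of focal adhesions (-2.77), FHL1, a LIM protein of muscle (-2.07), and SMTN, smoothelin (-1.59). Each of these, like DES, lost its call in at least 1 fit that left out a library, the highest adjusted p being 0.125 for DES, 0.117 for TPM1 and 0.0506 for FHL1. FHL1 lost it only without MC1, NEXN without MC1, MC2 or any HC library, SMTN and LIMS2 without these or LC2, and DES and TPM1 without these, LC2 or MC3. TPM1, NEXN and LIMS2 also share their locus. CKB, a creatine kinase on the same list, did not pass (0.00 ± 0.18 (SE), limma adjusted p = 0.998), and it stood at 933, 1226 and 1391 FPKM in HC and 1183, 1092 and 1231 FPKM in MC. The whole list summed to 2112 to 2747 FPKM in HC and 4283 to 8496 FPKM in MC. CKB thus held a large part of the HC sum, and the shares above do not measure the other members alone. In bulk tissue, fewer cells of a type and less RNA per cell cannot be told apart.

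**Figure D1:**
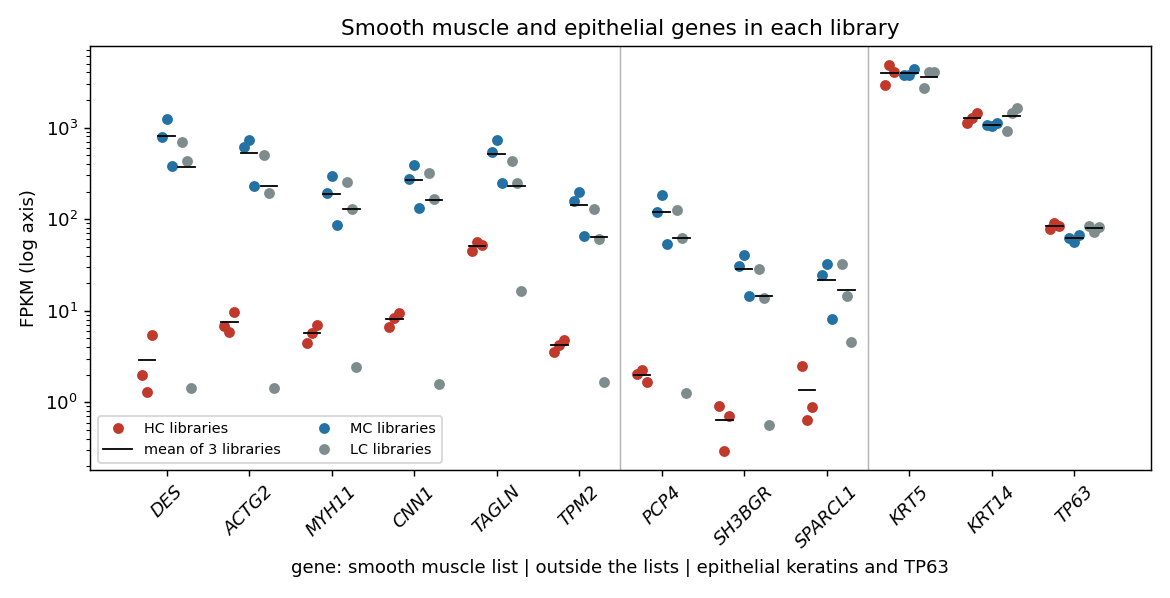
FPKM on a log axis of 6 smooth muscle genes, 3 genes outside the lists, and the epithelial genes KRT5, KRT14 and TP63. Each point is a library and each line the mean of the 3 libraries of a diet. The MC points and those of LC1 and LC2 lie above the HC points for DES, ACTG2, MYH11, CNN1, TPM2, PCP4 and SH3BGR. In these genes LC3 lies with HC, and KRT5 and KRT14 show no such split. For SPARCL1 LC3 lies above the HC points and below the MC points.

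The comparison was repeated with the mean log2 level of the 43 smooth muscle genes as a covariate. This mean was 2.87 to 3.02 in the HC libraries and 4.55 to 5.76 in the MC libraries, with no overlap, and 2.46 in LC3 against 5.598 in LC1, so the covariate was estimated mainly within LC and MC. With it 1294 genes passed (11.1%), 369 higher in HC (3.16%) and 925 lower (7.93%). Of the genes called without the covariate, 260 of 933 higher and 806 of 1984 lower genes also passed with it. The estimates moved less than the calls did: 91.5% of the higher and 91.3% of the lower genes kept at least 50% of their difference, while the median standard error over all genes went from 0.152 to 0.222. The smooth muscle list itself had a median of 0.02 with the covariate, but the covariate is the mean of these same genes. Their average difference was therefore fixed in advance, and this median is not a result of the fit. Among the largest falls outside the cell type lists, PCP4, a calmodulin-binding peptide, went from -5.18 to -0.93, SH3BGR from -4.09 to -0.97, SPARCL1, a matrix protein, from -3.16 to -1.12, PLEKHO1 from -2.76 to -0.64, and TUBB6, a tubulin, from -1.90 to -0.62. PCP4 stood at 2.05, 2.22 and 1.67 FPKM in HC, 119.9, 185 and 54.2 FPKM in MC and 126, 61.96 and 1.27 FPKM in LC. Like DES it was high in MC, LC1 and LC2 and low in HC and LC3. All of these lost their call when some libraries were left out, SPARCL1 and TUBB6 without HC2, HC3, MC1 or MC2, PLEKHO1 without these, HC1 or LC2, and PCP4 and SH3BGR without these or MC3 (highest adjusted p 0.134 for PCP4 and 0.0938 for SPARCL1).

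**Figure D2:**
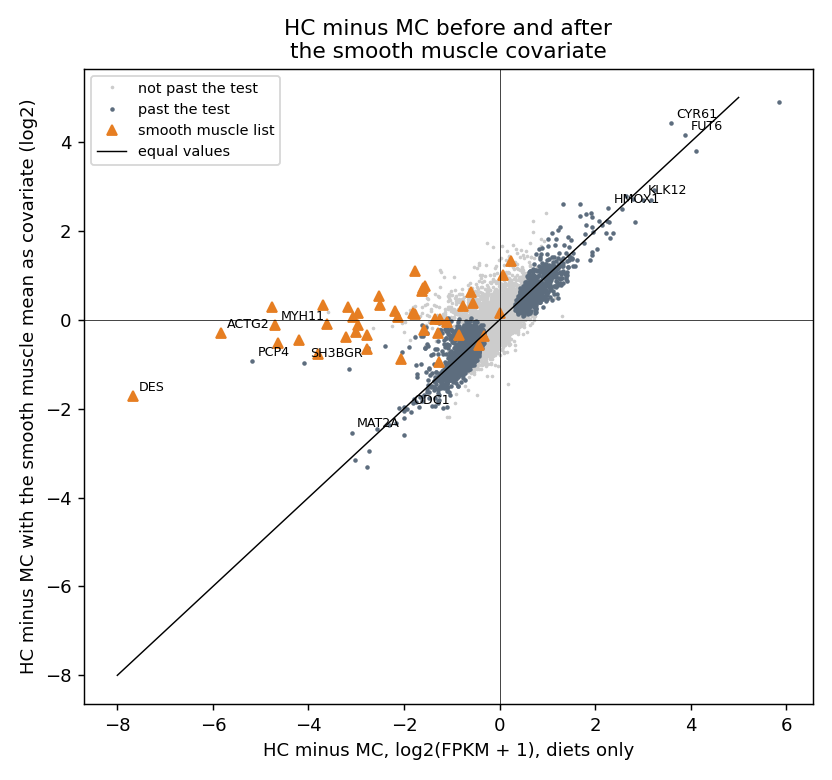
Difference of HC minus MC in log2(FPKM + 1) for every gene tested, without (horizontal axis) and with (vertical axis) the smooth muscle mean as a covariate, with genes past the test without it as dark points and the smooth muscle list as triangles. Most triangles lie near 0 on the vertical axis, where the covariate, being the mean of these genes, places them on average. PCP4 and SH3BGR lie nearer to 0 than to the line of equal values. FUT6, CYR61, KLK12, HMOX1, MAT2A and ODC1 lie near that line.

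No other cell type list held more than 0.0905% of the summed FPKM of an HC or MC library, and their members moved in both directions. Of 43 tested fibroblast and matrix genes, 3 were higher and 3 lower in HC (median -0.24), against 8.0% and 17.0% of all genes. Higher members numbered 0 without HC2, HC3 or MC3 and 1 without HC1, MC1, MC2 or LC2, and the lower count was 7 without LC1 and 5 without LC3. In the fit of HC and MC alone 4 were higher and 9 lower. COL3A1, a fibrillar collagen, stood at 58.8, 31.4 and 41.5 FPKM in the HC libraries and 59.2, 51.8 and 28.04 FPKM in the MC libraries, with overlapping ranges. With the muscle covariate 15 members were higher and 1 lower (median 0.74). The macrophage list had 4 of 10 tested members higher and 1 lower, the higher ones being the complement genes C1QA (1.15), C1QB (0.85, lost without HC2, HC3, MC1 or MC3) and C1QC (0.89, which shares its locus) and the Fc receptor subunit FCER1G (0.76). Without HC3 the macrophage list had 2 higher members. C1QA stood at 9.896, 7.902 and 13.6 FPKM in the HC libraries and 5.58, 5.22 and 2.15 FPKM in the MC libraries, so every HC library was above every MC library, though the call was lost without HC3 (adjusted p up to 0.0723). GPNMB, a glycoprotein of melanocytes and macrophages, was 17.97 ± 1.99 FPKM in HC and 2.82 ± 0.262 FPKM in MC (SD, n = 3), while its fellow melanocyte gene MC1R was 0.962 ± 0.224 FPKM in HC and 1.17 ± 0.103 FPKM in MC. The complement factor gene CFD, the only adipocyte marker tested, was higher (1.02 ± 0.18 (SE), limma adjusted p = 0.00247). CD247 of the T-cell receptor complex was lower (-0.65 ± 0.14 (SE), limma adjusted p = 0.00797), and the T-cell gene CD3E was under 1 FPKM in all 6 libraries. The lists for B cells and for neutrophils and mast cells had 0 of 2 tested members past the test each. The endothelial list had 2 of 19 higher and 0 lower, although its median was -0.76. In the fit of HC and MC alone 2 endothelial members were higher and 3 lower, and 2 were lower without MC3, LC1 or LC3. The part of these cells in the results below was not tested.

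Among genes with a symbol, the largest rises outside the cell type lists were led by FUT6. Larger rises of genes without a symbol are given at the end. FUT6 is a fucosyltransferase that adds fucose to glycan chains of the Lewis type. The gene is listed on chromosome 7 from 14952990 to 14955773. FUT6 stood at 56.4, 30.9 and 54.5 FPKM in the HC libraries and 2.64, 1.92 and 1.96 FPKM in the MC libraries. Every HC library had over 10 times the FPKM of every MC library, and LC had 5.55, 5.47 and 4.12 FPKM. The difference was 3.88 ± 0.21 (SE), limma adjusted p = 2.83e-06, and it was 4.15 with the muscle covariate. CYR61, a secreted matricellular protein and a target of YAP, stood at 47.3, 31.1 and 37.1 FPKM in the HC libraries and 3.12, 3.59 and 0.785 FPKM in the MC libraries (3.59 ± 0.36 (SE), limma adjusted p = 4.04e-04). Its 3 HC libraries were again above all MC and LC libraries, and LC had 6.15, 5.73 and 3.37 FPKM.

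KLK12 and KLK14, also among the 12 largest rises of genes with a symbol, encode kallikreins, serine proteases of the outer squamous layers. KLK12 stood at 43.4, 34.1 and 56.1 FPKM in the HC libraries and 6.12, 3.79 and 4.198 FPKM in the MC libraries (2.99 ± 0.23 (SE), limma adjusted p = 2.68e-05), and KLK14 at 12.3, 12.3 and 19.9 FPKM in the HC libraries and 1.53, 0.518 and 1.93 FPKM in the MC libraries (2.79 ± 0.26 (SE), limma adjusted p = 1.24e-04). For KLK12 the MC libraries alone were low, since LC had 54.5, 84.9 and 83.6 FPKM. KRT4, a keratin of suprabasal non-cornified squamous cells, showed the same order with 17.9, 16.1 and 29.2 FPKM in HC, 1.65, 2.18 and 2.25 FPKM in MC and 31.6, 60.1 and 69.8 FPKM in LC (2.83 ± 0.30 (SE), limma adjusted p = 3.17e-04). ALOX12B, a lipoxygenase of the skin lipid barrier, stood at 5.06, 5.96 and 8.68 FPKM in the HC libraries and 0.249, 0.1998 and 0.349 FPKM in the MC libraries (2.55). DNASE1L2, a nuclease of cornifying cells, stood at 31.1, 26.5 and 50.97 FPKM in the HC libraries and 4.55, 4.22 and 5.52 FPKM in the MC libraries (2.64), and NCCRP1, an F-box family protein, at 19.5, 19.3 and 34.4 FPKM in the HC libraries and 5.098, 5.101 and 5.91 FPKM in the MC libraries (1.95). In each of these 3 genes the lowest HC library was at least 3 times the highest MC library.

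The remaining large rises had varied roles. HMOX1, the inducible haem oxygenase, stood at 72.1, 60.3 and 97.7 FPKM in the HC libraries and 15.8, 12.1 and 16.8 FPKM in the MC libraries (2.27 ± 0.19 (SE), limma adjusted p = 4.01e-05), and the ranges did not overlap. ACAA1, the peroxisomal thiolase of fatty acid oxidation, stood at 271, 343 and 344 FPKM in the HC libraries and 69.5, 73.4 and 88.6 FPKM in the MC libraries (2.03 ± 0.21 (SE), limma adjusted p = 1.08e-04). ZBED3, a zinc finger protein that binds axin, differed by 2.23 and TMEM86A by 2.08. All 12 of these rises passed in every fit that left out 1 library and also passed with the muscle covariate.

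**Figure D3:**
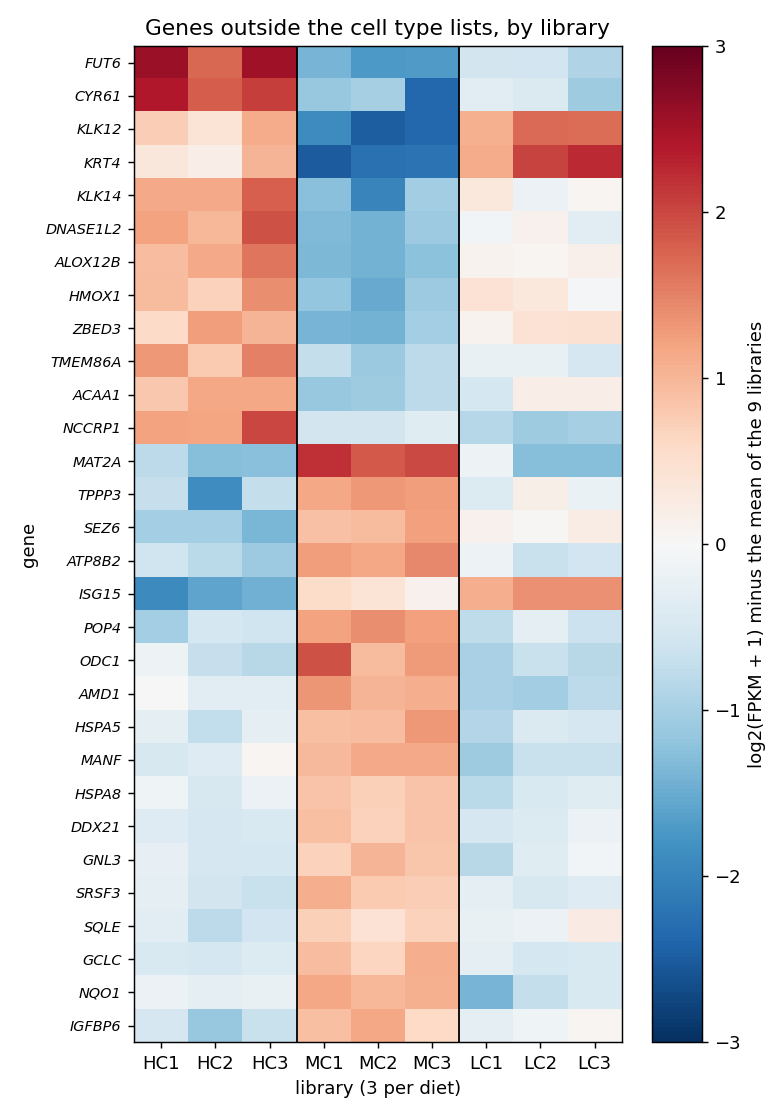
Heat map of log2(FPKM + 1) minus the mean of the 9 libraries for 30 genes outside the cell type lists, with libraries in columns (3 per diet) and genes in rows. FUT6, CYR61 and NCCRP1 are high in HC alone, KRT4 and KLK12 are low in MC alone, and MAT2A, ODC1, AMD1, HSPA5, DDX21 and GNL3 are high in MC alone.

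Among genes with a symbol, the largest fall outside those with the muscle pattern was that of MAT2A. This enzyme turns methionine into S-adenosylmethionine, the main methyl donor of cells. The gene is listed on chromosome 11 from 48854892 to 48861358. MAT2A stood at 186, 132 and 132 FPKM in the HC libraries and 1445, 1142 and 1251 FPKM in the MC libraries, with 286, 132 and 131 FPKM in LC. The lowest MC library was thus over 6 times the highest HC library, and HC resembled LC2 and LC3. The difference was -3.10 ± 0.28 (SE), limma adjusted p = 7.39e-05, and -2.54, limma adjusted p = 0.00147 with the muscle covariate. TPPP3, a tubulin polymerization protein, stood at 11.2, 4.37 and 11.03 FPKM in the HC libraries and 42.6, 47.3 and 45.7 FPKM in the MC libraries (-2.32), SEZ6 at 1.83, 1.84 and 1.23 FPKM in the HC libraries and 9.57, 10.2 and 12.5 FPKM in the MC libraries (-2.16), and ATP8B2, a phospholipid flippase, at 1.995, 1.58 and 1.13 FPKM in the HC libraries and 9.83, 9.06 and 11.3 FPKM in the MC libraries (-2.11). All MC libraries were above all HC libraries in these genes. ISG15, an interferon-induced ubiquitin-like modifier, stood at 5.68, 7.44 and 8.24 FPKM in the HC libraries and 35.8, 32.5 and 26.5 FPKM in the MC libraries (-2.01 ± 0.16 (SE), limma adjusted p = 2.68e-05), and here LC, at 52.6, 63.8 and 63.8 FPKM, was above both. POP4, a subunit of ribonuclease P, stood at 5.86, 8.61 and 8.18 FPKM in the HC libraries and 30.9, 35.6 and 31.7 FPKM in the MC libraries (-1.99), with LC near HC. These genes passed in every fit that left out 1 library and with the covariate.

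MAT2A belongs to the list of the methionine cycle and polyamines, in which S-adenosylmethionine feeds both methylation and the synthesis of spermidine and spermine. Of 27 members tested, 9 were lower in HC and 5 higher, 25.0% of all genes having passed in either direction. ODC1, the enzyme that makes putrescine, stood at 6.598, 4.23 and 3.75 FPKM in the HC libraries and 30.7, 15.2 and 19.4 FPKM in the MC libraries (-1.93 ± 0.24 (SE), limma adjusted p = 5.49e-04). AMD1, which makes the aminopropyl donor, stood at 20.1, 15.6 and 16.03 FPKM in the HC libraries and 51.8, 42.02 and 44.05 FPKM in the MC libraries (-1.37 ± 0.14 (SE), limma adjusted p = 1.02e-04). Both were higher in all MC than in all HC and LC libraries. The spermidine synthase gene SRM (-0.85), the salvage enzyme gene MTAP (-0.82) and AZIN1, whose product shields ODC1 from its antizyme (-0.65), were lower in HC as well. The higher members were the methyltransferase GNMT (0.83, a gene that shares its locus), AHCY, which clears S-adenosylhomocysteine (0.78, lost without HC2, MC1 or MC2), methionine synthase MTR (0.58), and the polyamine-degrading enzymes SAT1 (0.85) and PAOX (0.76). GNMT stood at 16.2, 18.4 and 15.3 FPKM in the HC libraries and 9.45, 7.65 and 9.56 FPKM in the MC libraries, without overlap. With the muscle covariate 6 members were lower and 1 higher.

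Most ribosome biogenesis genes were lower in HC. Of 59 members tested 39 were lower and 0 higher, against 17.0% and 8.0% of all genes, with a median of -0.50 against -0.10. In 44 members all MC libraries stood above every HC and LC library, as did 15.1% of all genes. DDX21, a nucleolar helicase of rRNA transcription and processing, stood at 12.3, 11.4 and 11.8 FPKM in the HC libraries and 31.99, 27.2 and 30.9 FPKM in the MC libraries (-1.27 ± 0.12 (SE), limma adjusted p = 7.71e-05). GAR1, a protein of the particles that place pseudouridine in rRNA, stood at 9.09, 10.2 and 9.63 FPKM in the HC libraries and 24.5, 24.05 and 24.2 FPKM in the MC libraries (-1.25 ± 0.12 (SE), limma adjusted p = 9.44e-05). The MC libraries of both were at least 2 times each HC library. GNL3, nucleostemin, stood at 11.5, 9.48 and 9.41 FPKM in the HC libraries and 23.05, 29.4 and 25.7 FPKM in the MC libraries (-1.28), and TSR1, a factor of small-subunit maturation that shares its locus, differed by -1.06. With the covariate 28 members were lower (median -0.67), after median-of-ratios scaling 27, and without MC1 24. MYC, a transcription factor known to drive such genes, stood at 21.9, 27.4 and 25.2 FPKM in the HC libraries and 20.5, 21.5 and 26.8 FPKM in the MC libraries and did not pass (0.11 ± 0.14 (SE), limma adjusted p = 0.569).

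Of 62 splicing factor genes 23 were lower in HC and 2 higher, against 17.0% and 8.0% of all genes, with a median of -0.36 against -0.10. They included the serine and arginine rich factors SRSF3, SRSF7 and SRSF5, which select exons. SRSF3 stood at 34.3, 28.1 and 25.6 FPKM in the HC libraries and 89.5, 71.3 and 69.8 FPKM in the MC libraries (-1.36 ± 0.15 (SE), limma adjusted p = 1.64e-04), with all MC libraries above all HC libraries. SRSF7 differed by -1.10 and SRSF5 by -1.14. LUC7L3 stood at 24.4, 21.1 and 25.8 FPKM in the HC libraries and 44.6, 56.99 and 44.9 FPKM in the MC libraries. The count of lower members was 14 without MC2 and 8 with the covariate.

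Translation factors passed in shares near those of all genes. Of 42 tested 10 were lower in HC and 4 higher (23.8% and 9.52%), against 17.0% and 8.0% of all genes. EIF5B, which joins the ribosomal subunits, stood at 13.7, 15.6 and 14.99 FPKM in the HC libraries and 26.9, 28.8 and 30.4 FPKM in the MC libraries (-0.91 ± 0.11 (SE), limma adjusted p = 3.02e-04), and the ranges were apart. EIF4A3 of the exon junction complex differed by -0.81 and EIF2S2 of the initiator tRNA complex by -0.78. Of 22 aminoacyl-tRNA synthetase genes, which charge tRNAs, 6 were lower and 1 higher (NARS -0.58, YARS -0.61). The lower translation factors numbered 6 without MC1, and the higher ones 1 without HC2, HC3, MC1 or MC2, 2 without MC3 and 9 without LC1. Of 35 proteasome genes 10 were lower and 1 higher, among them PSMA5 of the core (-0.81) and PSMD7 of the cap (-0.60), and the lower count was between 5 without HC2 or MC1, 6 without HC3, MC2 or MC3, and 17 without LC1, while 0 were higher without HC2, HC3, LC2, LC3 or any MC library.

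Of 73 cytosolic ribosomal protein genes, 3 were higher in HC and 0 lower, against 8.0% and 17.0% of all genes, with a median of 0.34. The higher count depended strongly on the fit. It was 42 without LC1, 7 without HC1, 33 in the fit of HC and MC alone, 19 after median-of-ratios scaling and 0 with the muscle covariate, and 0 members were lower in each of these fits. RPLP0 of the stalk stood at 3829, 6056 and 5306 FPKM in the HC libraries and 2709, 2728 and 3172 FPKM in the MC libraries (0.80 ± 0.22 (SE), limma adjusted p = 0.0222), RPS2 differed by 0.70 and RPL38 by 0.53. All 3 lost their calls without HC2, HC3, MC1 or MC2, RPS2 and RPL38 also without MC3, and RPL38 also without LC2 or LC3 (highest adjusted p 0.0961 for RPLP0). The median of the list was -0.03 with the muscle covariate, 0.09 after quantile normalization and 0.17 after rescaling to the same total, so its sign depended on the covariate. Of 73 mitochondrial ribosomal protein genes 8 were lower and 0 higher, led by MRPS23 (-0.94) and MRPS6 (-0.75). That count was 4 without HC2 or MC1 and 5 without HC3 or MC3, and without LC1 2 were higher.

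**Figure D4:**
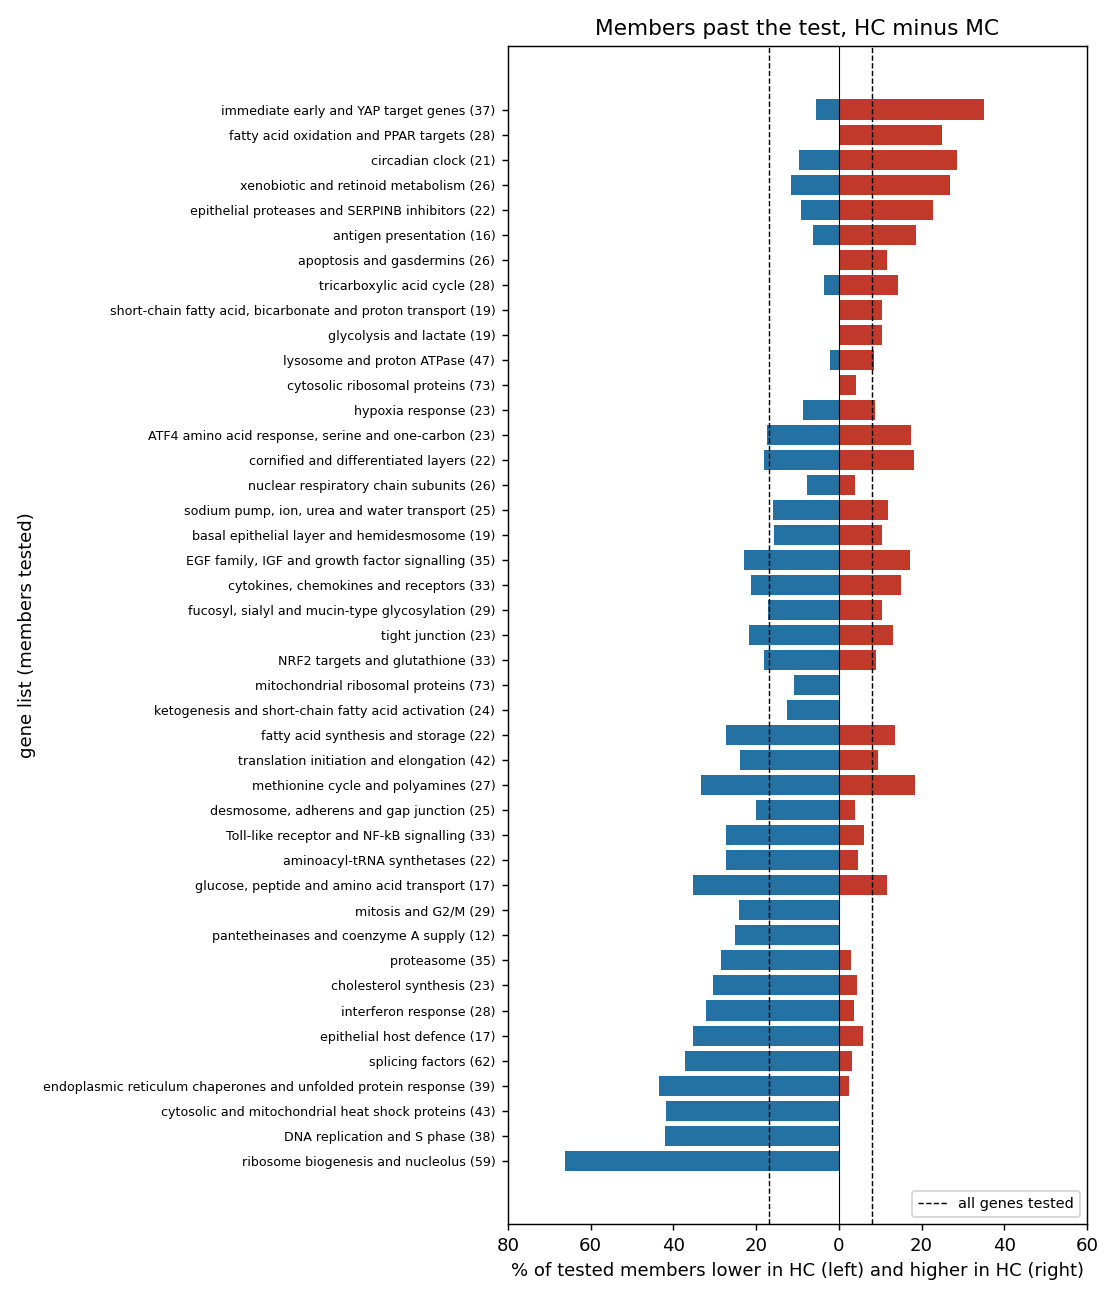
Share of the tested members of each gene list that were lower (bars to the left) and higher (bars to the right) in HC, in percent, with the number tested in brackets and dashed lines at the shares of all genes, 17.0% lower and 8.0% higher. Ribosome biogenesis, S phase, heat shock and endoplasmic reticulum chaperone genes extend furthest to the left, and immediate early genes furthest to the right.

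In each of the chaperone lists some members were lower in HC and most did not pass. Of 39 genes of endoplasmic reticulum chaperones and the unfolded protein response 17 were lower and 1 higher, against 17.0% and 8.0% of all genes (median -0.38), and 21 did not pass. HSPA5, the main chaperone of the endoplasmic reticulum, stood at 109, 80.4 and 112 FPKM in the HC libraries and 255, 257 and 335 FPKM in the MC libraries (-1.48 ± 0.19 (SE), limma adjusted p = 3.66e-04), and LC, at 72.7, 100.3 and 94.7 FPKM, lay in or near the HC range. MANF, a secreted partner of HSPA5, stood at 61.1, 65.4 and 90.2 FPKM in the HC libraries and 169, 189.8 and 189.5 FPKM in the MC libraries (-1.35 ± 0.17 (SE), limma adjusted p = 4.29e-04). In both genes every MC library was above every other library. DNAJC10, a disulfide reductase, differed by -0.76. The count of lower members was 8 without HC2 or MC2 and 9 without HC3, MC1 or MC3, and 11 with the covariate. Of 43 cytosolic and mitochondrial heat shock genes 18 were lower and 0 higher (median -0.36), 25 did not pass, and 13 were lower with the covariate. This list shares HSPB6, HSPB7 and CRYAB with the smooth muscle list, and these counts include those of them that were tested. HSPH1, a nucleotide exchange factor of HSP70 chaperones, stood at 21.3, 17.5 and 23.1 FPKM in the HC libraries and 39.2, 45.2 and 50.7 FPKM in the MC libraries (-1.09 ± 0.17 (SE), limma adjusted p = 0.00134). CACYBP differed by -1.14 and HSPA4 by -0.79. CRYAB, a small heat shock protein that is also on the smooth muscle list, stood at 18.8, 15.95 and 16.6 FPKM in the HC libraries and 45.7, 43.99 and 37.8 FPKM in the MC libraries and at 10.9, 9.87 and 7.96 FPKM in LC, so LC1 and LC2 did not share the high MC level (-1.26 ± 0.14 (SE), limma adjusted p = 1.56e-04).

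Cell division genes were lower in HC in part. Of 38 genes of DNA replication and S phase 16 were lower and 0 higher, against 17.0% and 8.0% of all genes (median -0.35). PCNA, the sliding clamp of DNA polymerase, stood at 22.1, 16.8 and 17.3 FPKM in the HC libraries and 38.8, 35.1 and 29.8 FPKM in the MC libraries (-0.85 ± 0.15 (SE), limma adjusted p = 0.00296). TYMS, which makes thymidylate, differed by -0.82, the replicative helicase subunit MCM6 by -0.59 and its partner GINS2 by -0.78. For these genes LC was lower still, as for PCNA at 9.89, 11.7 and 13.8 FPKM, so HC lay between LC and MC. The lower count was 9 without HC2 or MC1 and 10 without HC3 or MC2, and 6 with the covariate. Of 29 mitotic genes 7 were lower and 0 higher, among them cyclin B1, CCNB1 (-0.65), and RACGAP1 of cytokinesis (-0.64). That count was 2 without HC2 and 3 without HC3, MC1 or MC2. It was 4 after median-of-ratios scaling and 2 after quantile normalization, where 1319 and 1296 of all 11668 genes were lower. In these fits 11 and 10 of the S phase genes were lower. MKI67, the proliferation antigen Ki-67, stood at 1.12, 1.9003 and 2.21 FPKM in the HC libraries and 1.403, 1.61 and 2.25 FPKM in the MC libraries and did not pass (-0.02 ± 0.19 (SE), limma adjusted p = 0.961).

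**Figure D5:**
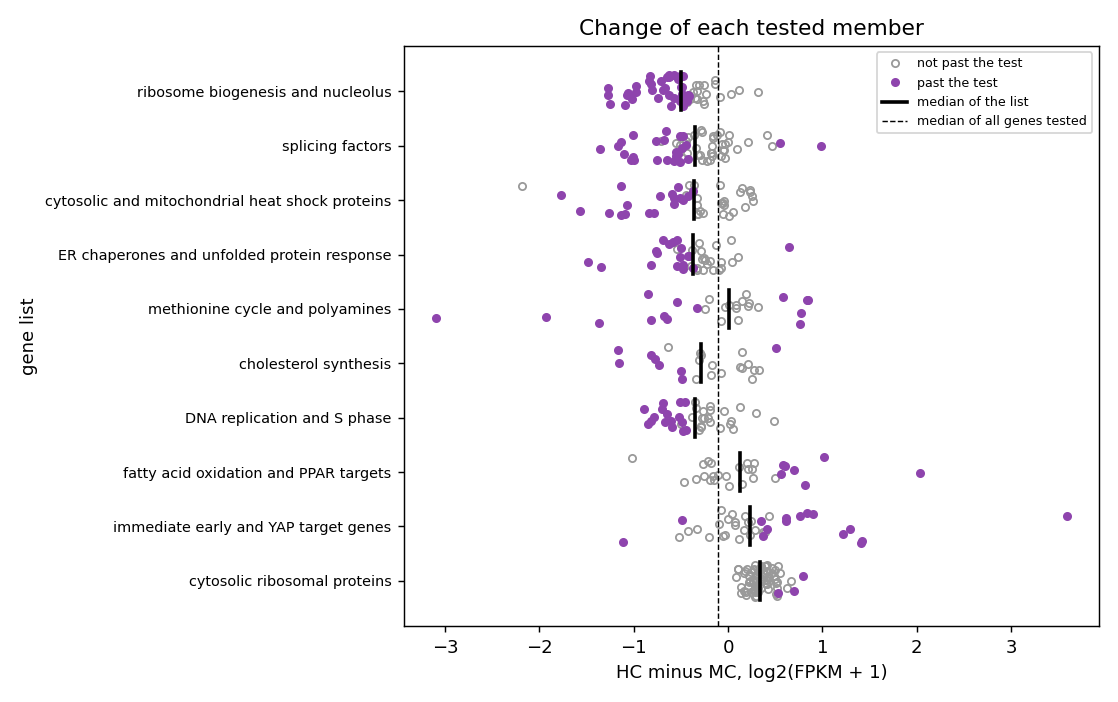
Difference of HC minus MC in log2(FPKM + 1) for each tested member of 10 gene lists, with filled points past the test, open points not past it, a bar at each list's median and a dashed line at the median of all genes, -0.10. Members past the test lie on the left for ribosome biogenesis, splicing, chaperone and S phase genes and mostly on the right for immediate early and fatty acid oxidation genes, while methionine cycle and polyamine genes lie on both sides.

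In cholesterol synthesis 7 of 23 members were lower in HC and 1, MVK (0.50), was higher, against 17.0% and 8.0% of all genes. The call of MVK was lost without LC2 or any HC or MC library. SQLE, which forms squalene epoxide, stood at 15.3, 10.8 and 12.6 FPKM in the HC libraries and 32.1, 26.2 and 31.6 FPKM in the MC libraries (-1.17 ± 0.16 (SE), limma adjusted p = 6.81e-04). The MC libraries were above all others. FDPS (-0.73) and DHCR7 (-0.77) were also lower, and with the muscle covariate 9 members were lower. In fatty acid synthesis and storage 6 of 22 were lower and 3 higher. The desaturase gene SCD (-1.15), ACACA, which makes malonyl-CoA (-0.74), and the fatty acid carrier FABP5 (-0.92) were lower, whereas PLIN2, which coats lipid droplets, was higher (0.69, lost without MC1 or MC2). FABP5 stood at 865, 923 and 974 FPKM in the HC libraries and 1713, 1843 and 1664 FPKM in the MC libraries, without overlap. The count of lower members was 3 without HC2, MC1 or MC3, and that of higher members 0 without MC1 and 1 without HC2, HC3, MC2 or LC2.

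In fatty acid oxidation 7 of 28 members were higher in HC and 0 lower, against 8.0% and 17.0% of all genes. Besides ACAA1 they included the peroxisomal enzyme EHHADH (0.56), the nuclear receptor partner RXRA (1.01) and the coactivator PPARGC1B (0.70, a gene that shares its locus). RXRA stood at 58.6, 87.4 and 71.4 FPKM in the HC libraries and 29.4, 32.3 and 45.03 FPKM in the MC libraries (1.01 ± 0.19 (SE), limma adjusted p = 0.00364). The count was 6 to 8 when any HC or MC library was left out, and 1, ACAA1, with the muscle covariate. Without LC1 3 members were lower. CPT1A, which carries long-chain fatty acids into mitochondria, did not pass (-0.20 ± 0.13 (SE), limma adjusted p = 0.275).

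In ketone body and short-chain fatty acid metabolism few genes passed the test. BDH1, which forms hydroxybutyrate, was abundant in both diets, at 996 ± 53.9 FPKM in HC and 771 ± 79.8 FPKM in MC (SD, n = 3), and its HC and MC ranges did not overlap. BDH1 had an adjusted p of 0.183 in the limma fit of 9 libraries and 0.37, limma adjusted p = 0.0335 in that of HC and MC alone. Of 24 members tested 3 were lower, the acetoacetate-activating AACS (-0.51), the mitochondrial acetate-activating ACSS1 (-0.77) and the ketone-using OXCT1 (-1.07), and 0 were higher, against 17.0% and 8.0% of all genes. These 3 were low, with means of 2.48, 3.55 and 0.507 FPKM in HC and 3.94, 6.82 and 2.22 FPKM in MC. The median of the list was 0.16, against -0.10 for all genes. All HC libraries stood above every MC and LC library in 6 members (4.23% of all genes) and below them in 3 (11.8% of all genes). Without LC1, and likewise in the fit of HC and MC alone, 4 members were higher and 3 lower. ACSS1 lost its call without HC2 or MC2 and OXCT1 without HC2, HC3, MC1 or MC2 (highest adjusted p 0.07201 and 0.114), and both went nearer to 0 with the muscle covariate (-0.31 and -0.23). In the tricarboxylic acid cycle 4 of 28 were higher and 1, IDH3A (-0.95, which shares its locus), was lower. That higher count was 0 without HC2, HC3 or MC2, 1 without MC1, 7 without HC1 and 8 without LC1. In glycolysis 2 of 19, HK1 (0.49) and PFKL (0.61), were higher, and of 26 nuclear respiratory chain genes 1, ATP5D (0.71), was higher and 2, NDUFA4 (-0.70) and NDUFA5 (-0.48), were lower. HK1, PFKL and ATP5D lost their calls without HC2, HC3, MC1 or MC2, PFKL also without LC2 or LC3, NDUFA4 without MC1, and NDUFA5 without HC2, HC3 or any MC library. The higher count of the respiratory chain list was 8 without LC1 and 5 in the fit of HC and MC alone, against 2 and 2 lower ones.

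Of 19 tested genes of short-chain fatty acid, bicarbonate and proton transport 2 were higher and 0 lower, against 8.0% and 17.0% of all genes. Higher members numbered 4 without LC1 and 1 without HC3, MC2 or LC2, and the lower count 1 without HC1, MC3 or LC1. SLC26A2, a sulfate and anion exchanger, stood at 50.3, 47.9 and 47.2 FPKM in the HC libraries and 24.99, 21.2 and 25.8 FPKM in the MC libraries (0.99 ± 0.13 (SE), limma adjusted p = 5.22e-04), with LC near HC. CA12, a membrane carbonic anhydrase, differed by 0.53 and lost its call without HC2, HC3, MC1, MC2 or LC2 (adjusted p up to 0.149). SLC16A1, the monocarboxylate transporter for lactate and short-chain fatty acids, stood at 435, 416 and 389 FPKM in the HC libraries and 326, 278 and 288 FPKM in the MC libraries, without overlap but short of the threshold (0.48 ± 0.17 (SE), limma adjusted p = 0.0547). It passed after median-of-ratios scaling and in the fit of HC and MC alone (0.48, limma adjusted p = 0.0114). The sodium-proton exchangers SLC9A2 (-0.37) and SLC9A3 (0.42) and the chloride-bicarbonate exchanger SLC26A3 (-0.29) did not pass. SLC16A3, CA2, DSG1 and TLR4 were listed under 1 FPKM in every HC and MC library that lists them and were not tested.

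Of 25 genes of ion, urea and water transport 3 were higher and 4 lower, shares near the 8.0% and 17.0% of all genes. KCNK1, a potassium channel, stood at 2.32, 2.19 and 2.999 FPKM in the HC libraries and 12.3, 10.01 and 10.9 FPKM in the MC libraries (-1.79 ± 0.13 (SE), limma adjusted p = 1.26e-05), with every MC library above every other. ATP1B1, the beta subunit of the sodium pump, stood at 19.6, 18.8 and 17.6 FPKM in the HC libraries and 8.203, 6.96 and 7.01 FPKM in the MC libraries (1.23 ± 0.11 (SE), limma adjusted p = 6.46e-05) but shares its locus. The chloride channel protein CLIC1 (-0.87) and the magnesium exchanger SLC41A1 (-0.57) were lower. Without HC3 or MC2 the higher count was 1, and the lower count was 7 without LC1. SLC14A1, the urea transporter, stood at 131, 134 and 152 FPKM in the HC libraries and 155, 124 and 144 FPKM in the MC libraries and differed by -0.02 ± 0.13 (SE), limma adjusted p = 0.9302, while LC had 49.5, 47.5 and 46.6 FPKM. AQP3, a water and glycerol channel, did not pass (-0.37 ± 0.16 (SE), limma adjusted p = 0.106).

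Of 17 glucose, peptide and amino acid transporters 6 were lower in HC and 2 higher, against 17.0% and 8.0% of all genes. The list had 1 higher member without HC1, HC3 or any MC library and 3 without HC2 or LC1. SLC1A4, which carries alanine, serine and cysteine, stood at 6.798, 8.65 and 7.88 FPKM in the HC libraries and 1.37, 1.58 and 1.72 FPKM in the MC libraries (1.78 ± 0.14 (SE), limma adjusted p = 2.68e-05), with no overlap. In the other direction SLC7A5, which carries large neutral amino acids, stood at 2.86, 2.95 and 2.94 FPKM in the HC libraries and 7.67, 5.61 and 8.65 FPKM in the MC libraries (-1.07 ± 0.14 (SE), limma adjusted p = 5.49e-04), and SLC5A1, which takes up glucose with sodium, at 10.6, 5.83 and 9.56 FPKM in the HC libraries and 17.1, 14.3 and 18.96 FPKM in the MC libraries (-0.91). The glucose transporter gene SLC2A1 (-0.64) was also lower. The glutamine carrier gene SLC38A1 stood at 2.29, 2.43 and 2.08 FPKM in the HC libraries and 6.07, 4.95 and 5.61 FPKM in the MC libraries, with all MC libraries above all HC libraries. SLC15A1, the peptide transporter, was low in both diets at 2.07 ± 0.294 FPKM in HC and 1.58 ± 0.282 FPKM in MC and did not pass, while LC had 15.5, 12.5 and 14.2 FPKM.

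Barrier genes moved in both directions. Of 22 tested genes of the cornified and differentiated layers 4 were higher in HC and 4 lower, against 8.0% and 17.0% of all genes. Besides KRT4 and ALOX12B the higher ones were KRT23 (1.94) and CNFN, cornifelin (1.34, lost without HC1 or HC3). The lower ones were the transglutaminases TGM3 (-1.03) and TGM1 (-0.76), which cross-link the cornified envelope, and the transcription factors GRHL3 (-0.66) and GRHL1 (-0.44), of which GRHL1 lost its call without LC2, LC3 or any HC or MC library. TGM3 stood at 247, 256 and 301 FPKM in the HC libraries and 527, 494 and 633 FPKM in the MC libraries, without overlap (-1.03 ± 0.18 (SE), limma adjusted p = 0.00224). TGM1 lost its call without HC2 or MC3 (adjusted p up to 0.0836). The higher count was 7 without HC2 or LC1, and the lower count 2 without HC2 or MC3. Involucrin, IVL, stood at 385, 299 and 555 FPKM in the HC libraries and 488, 533 and 647 FPKM in the MC libraries and did not pass (-0.46 ± 0.25 (SE), limma adjusted p = 0.196).

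Of 22 epithelial proteases and their inhibitors 5 were higher and 2 lower, against 8.0% and 17.0% of all genes. The higher ones were KLK12, KLK14, KLK13 (0.72, lost without HC3), the membrane protease PRSS27 (0.91) and the lysosomal CTSL (0.77). Both lower ones encode inhibitors, SERPINB11 (-1.63) and SPINK5, which restrains kallikreins (-1.18). SERPINB11 stood at 10.3, 5.99 and 13.1 FPKM in the HC libraries and 30.2, 29.2 and 33.8 FPKM in the MC libraries (-1.63 ± 0.21 (SE), limma adjusted p = 5.76e-04), with LC at or under the HC range at 4.77, 5.87 and 6.15 FPKM. SPINK5 was 195 ± 69.3 FPKM in HC and 428 ± 75.5 FPKM in MC (SD, n = 3) and lost its call without HC2, HC3, LC2 or any MC library.

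Of 23 tight junction genes 5 were lower and 3 higher, against 17.0% and 8.0% of all genes. Claudin 7, CLDN7 (-0.68), and cingulin, CGN (-0.71), were lower, and claudin 4, CLDN4, was higher. CLDN4 stood at 445, 417 and 445 FPKM in the HC libraries and 286, 234 and 321 FPKM in the MC libraries (0.64 ± 0.16 (SE), limma adjusted p = 0.0123) and lost its call without HC3 or MC2. Without MC1 the count of lower members was 3, and without HC3 or MC2 that of higher members was 0. CLDN1 (-0.16), OCLN (-0.32) and TJP1 (0.10) did not pass. Of 25 genes of desmosomes, adherens and gap junctions 5 were lower and 1 higher. DSG3, the desmoglein that holds basal and suprabasal cells, stood at 205, 155 and 179.5 FPKM in the HC libraries and 312, 292 and 414 FPKM in the MC libraries (-0.90 ± 0.20 (SE), limma adjusted p = 0.00794), and DSC2 differed by -0.79. The higher one was the gap junction gene GJB6 (1.08). Of 19 basal layer genes 2, WNT10A (1.18) and TP63 (0.43), were higher, and 3, the integrins ITGA3 (-1.02), ITGA6 (-0.69) and ITGB1 (-0.66), were lower. WNT10A stood at 12.6, 16.05 and 12.6 FPKM in the HC libraries and 5.47, 5.23 and 5.77 FPKM in the MC libraries (1.18 ± 0.13 (SE), limma adjusted p = 1.99e-04), with LC in or above the HC range. TP63 lost its call without HC2, HC3, MC1 or MC2 and after rescaling to the same total, and without LC1 5 members of the list were higher.

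Of 17 epithelial defence genes 6 were lower and 1, LCN2 (0.69), was higher, against 17.0% and 8.0% of all genes. The call of LCN2 was lost without HC2, HC3, MC1 or MC3. S100A14 stood at 48.5, 50.01 and 41.9 FPKM in the HC libraries and 109.98, 124 and 112 FPKM in the MC libraries (-1.29 ± 0.24 (SE), limma adjusted p = 0.00383). DUOX1, which releases hydrogen peroxide at the surface, stood at 2.41, 1.71 and 1.23 FPKM in the HC libraries and 4.24, 4.49 and 5.09 FPKM in the MC libraries (-1.03), and its maturation factor DUOXA1 differed by -0.98. S100A8, a subunit of the antimicrobial calprotectin, did not pass (0.15 ± 0.38 (SE), limma adjusted p = 0.804), and it stood at 48.1, 26.8 and 25.1 FPKM in HC and 28.7, 44.7 and 18.3 FPKM in MC against 2044, 3754 and 4067 FPKM in LC. Of 28 interferon response genes 9 were lower and 1, LGALS3BP (0.44), was higher, against 17.0% and 8.0% of all genes. The call of LGALS3BP was lost without HC2, HC3 or any MC library and after rescaling to the same total. After ISG15 came PARP9 (-0.98), IRF9 of the interferon signalling complex (-0.81) and TRIM21 (-0.60). IRF9 stood at 5.7001, 4.11 and 5.86 FPKM in the HC libraries and 10.02, 9.11 and 10.4 FPKM in the MC libraries and at 18.5, 20.1 and 18.4 FPKM in LC, so MC lay between. In 11 members all HC libraries were below every MC and LC library, as in 11.8% of all genes. The lower count was 5 without MC2 and 4 with the muscle covariate.

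Of 33 Toll-like receptor and NF-kB genes 9 were lower and 2 higher, against 17.0% and 8.0% of all genes. The list had 1 higher member without HC2, HC3, MC1, MC2, LC2 or LC3. TLR2, a receptor of bacterial lipoproteins, stood at 7.06, 4.65 and 5.12 FPKM in the HC libraries and 9.27, 8.28 and 10.1 FPKM in the MC libraries (-0.64 ± 0.15 (SE), limma adjusted p = 0.00921), and CD14, a co-receptor, differed by -0.61. The inhibitory enzyme TNFAIP3 (-0.79) and the subunit RELB (-0.70) were lower too. TLR5, the flagellin receptor, was higher instead, at 13.02, 12.8 and 14.9 FPKM in the HC libraries and 5.59, 5.82 and 7.08 FPKM in the MC libraries (1.02 ± 0.14 (SE), limma adjusted p = 5.38e-04). Of 33 cytokine and receptor genes 5 were higher and 7 lower. IL1R2, the interleukin 1 decoy receptor, stood at 159, 158 and 147 FPKM in the HC libraries and 91.2, 81.96 and 76.1 FPKM in the MC libraries (0.89 ± 0.13 (SE), limma adjusted p = 8.64e-04), and IL20RB differed by 0.96, while IL17RC (-0.85) and the interleukin 18 antagonist IL18BP (-0.98) were lower. The higher count was 3 without HC2, and the lower count 4 without HC2 or MC1 and 3 without MC2. In antigen presentation 3 of 16 were higher, TAP1, the peptide transporter (0.72), the immunoproteasome subunit PSMB10 (0.86) and CD74 (0.45), and 1, PDIA3 (-0.42), was lower. CD74 and PDIA3 lost their calls without HC2, HC3, LC2 or any MC library, and PDIA3 also without HC1.

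Of 33 NRF2 target and glutathione genes 6 were lower in HC and 3 higher (18.2% and 9.09%), near the 17.0% and 8.0% of all genes. HMOX1 was higher, yet NQO1, a quinone reductase, stood at 36.1, 33.9 and 35.02 FPKM in the HC libraries and 92.4, 82.8 and 86.3 FPKM in the MC libraries (-1.29 ± 0.20 (SE), limma adjusted p = 0.00114). The subunits of the enzyme that begins glutathione synthesis went opposite ways, with the catalytic GCLC at 5.35, 5.05 and 5.52 FPKM in the HC libraries and 15.6, 12.7 and 17.4 FPKM in the MC libraries (-1.35 ± 0.13 (SE), limma adjusted p = 7.89e-05) and the modifier GCLM at 47.4, 38.4 and 38.1 FPKM in the HC libraries and 22.2, 20.7 and 20.6 FPKM in the MC libraries (0.93 ± 0.14 (SE), limma adjusted p = 9.87e-04). None of these 4 genes had overlapping ranges. Of 23 genes of the ATF4 response, serine and one-carbon metabolism 4 were higher and 4 lower, with the phosphatase subunit PPP1R15A (0.93) and DDIT4 (0.63) up and the mitochondrial folate enzymes MTHFD2 (-0.80) and SHMT2 (-0.54) down. Both of the latter share their locus, and the lower count was 2 without HC3 or any MC library. Of 23 hypoxia genes 2, NDRG1 (1.08) and EGLN3 (0.68), were higher and 2, SLC2A1 and P4HA2 (-0.51), were lower. EGLN3 lost its call without HC3 or MC2 and P4HA2 without MC1, MC2 or any HC library. Of 26 apoptosis and gasdermin genes 3 were higher, the BH3-only genes BBC3 (1.76) and BMF (0.53, lost without MC1) and GSDMA (0.91), and 0 lower, the counts being 5 and 1 without LC1. BBC3 stood at 6.59, 10.1 and 6.33 FPKM in the HC libraries and 2.86, 1.19 and 0.883 FPKM in the MC libraries (1.76 ± 0.27 (SE), limma adjusted p = 0.00192).

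Immediate early and YAP target genes had more higher than lower members. Of 37 tested 13 were higher in HC and 2 lower, against 8.0% and 17.0% of all genes (median 0.23). After CYR61 came ZFP36L1, which binds and destabilizes mRNA, at 144, 210.3 and 202 FPKM in the HC libraries and 59.4, 69.04 and 78.1 FPKM in the MC libraries (1.40 ± 0.17 (SE), limma adjusted p = 2.88e-04). FOS, a subunit of the AP-1 transcription factor, stood at 40.1, 40.4 and 46.97 FPKM in the HC libraries and 15.8, 15.6 and 18.8 FPKM in the MC libraries (1.29 ± 0.16 (SE), limma adjusted p = 3.17e-04). The phosphatase gene DUSP4 differed by 1.42, EGR1 by 0.90 and JUN by 0.84. The lower members were FOSL1 (-1.11) and KLF6 (-0.49), the latter lost without HC2, HC3 or any MC library. In 11 members all HC libraries stood above every MC and LC library, as in 4.23% of all genes. The higher count was 9 to 13 when any HC or MC library was left out and 6 with the muscle covariate.

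Of 35 growth factor signalling genes 6 were higher and 8 lower, against 8.0% and 17.0% of all genes. The EGF family ligands EREG (-1.03) and HBEGF (-0.94, lost without HC2 or MC2) were lower in HC, the receptor gene ERBB2 was higher (0.78), and EGFR did not pass (0.37 ± 0.22 (SE), limma adjusted p = 0.225). The binding proteins of insulin-like growth factors diverged. IGFBP6 stood at 15.9, 9.98 and 14.1 FPKM in the HC libraries and 44.3, 52.96 and 35.5 FPKM in the MC libraries (-1.66 ± 0.18 (SE), limma adjusted p = 1.81e-04) and IGFBP5 at 28.4, 40.98 and 34.3 FPKM in the HC libraries and 10.9, 11.01 and 13.6 FPKM in the MC libraries (1.46 ± 0.18 (SE), limma adjusted p = 3.14e-04), without overlap in either gene. IGFBP2 was lower (-0.89), and IGFBP3 did not pass (-0.27 ± 0.40 (SE), limma adjusted p = 0.652). The lower count was 3 without HC2 or MC2, 5 without HC3 and 4 without MC1.

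Of 21 circadian clock genes 6 were higher in HC and 2 lower, against 8.0% and 17.0% of all genes. CRY1, a repressor of the clock, stood at 1.096, 0.949 and 0.975 FPKM in the HC libraries and 4.44, 3.31 and 3.96 FPKM in the MC libraries (-1.28 ± 0.14 (SE), limma adjusted p = 1.56e-04), with LC at 1.17, 0.852 and 1.12 FPKM, and the other lower gene was PER2 (-0.89). NR1D1, a repressor in the opposite phase, stood at 18.1, 17.7 and 20.9 FPKM in the HC libraries and 9.84, 10.8 and 11.01 FPKM in the MC libraries (0.78 ± 0.12 (SE), limma adjusted p = 0.00116). USP2 was higher by 0.61. The higher count was 2 without HC2 or MC1 and 3 without HC3 or MC2. The labels do not give the time of sampling, so its part was not tested.

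Of 26 genes of xenobiotic and retinoid metabolism 7 were higher and 3 lower, against 8.0% and 17.0% of all genes. The higher ones included the retinoid genes ALDH1A3, which makes retinoic acid (0.92), and DHRS3 (0.73), and the lower ones BCO2, which cleaves carotenoids (-1.01), and the epoxide hydrolase EPHX2 (-0.99). EPHX2 stood at 12.8, 17.8 and 15.6 FPKM in the HC libraries and 30.5, 30.1 and 33.4 FPKM in the MC libraries (-0.99 ± 0.17 (SE), limma adjusted p = 0.00211). The higher count was 4 without HC3 and 3 without MC1. FUT6 belongs to a list in which 3 of 29 glycosylation genes were higher and 5 lower. ST6GALNAC2, a sialyltransferase, was higher (0.98), and GALNT1, which starts mucin-type glycans, was lower (-0.89). Without HC3 the count of lower members was 2, and without HC2 or MC1 it was 3. Of 47 lysosome and proton pump genes 4 were higher and 1 lower. ATP6V1C2, a pump subunit of epithelia that shares its locus, stood at 55.6, 37.7 and 63.97 FPKM in the HC libraries and 23.6, 23.04 and 23.5 FPKM in the MC libraries (1.10 ± 0.17 (SE), limma adjusted p = 0.00104), and the lysosomal channel MCOLN1 differed by 0.60. That higher count was 7 without HC1, and the lower count 4 without LC1. Of 12 coenzyme A supply genes 3, NUDT7 (-0.62), SLC5A6 (-0.52) and PPCS (-0.44), were lower and 0 higher, SLC5A6 and PPCS, which shares its locus, losing their calls without HC3 or MC1.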

How the data were processed

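Total RNA of rumen epithelium was sequenced in 9 libraries, 3 per diet. The authors deposited 1 FPKM value per gene and library, for which the submitters' processing notes name the aligner Bowtie 1.2.0 and the assembler Cufflinks 2.2.1. That tool and the values themselves gave the unit, and the genome build is not given in the sources used here. Positions are those of the files with the start moved to count from 1 (4 mitochondrial genes fixed the offset), and chromosomes and names were matched to the RefSeq table of assembly ARS1.2, which holds 16473 of 18383 names (89.6%). No sequence is printed because none was given for these genes. Lines of the same gene were summed (TPT1, CD81), and 18 to 21 names per MC or LC file that a spreadsheet had turned into dates were left out. The HC files hold none of these, but 11468 to 12038 empty lines each, against 0 in the others.

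The test used log2(FPKM + 1), a scale on which fold changes of low genes come out too small. A level of 1 FPKM or more was reached in 3 or more libraries by 11879 genes, and the 211 of them not listed in every library were left out. The diets were compared with limma 3.58.1 (R 4.3.3, statmod 1.5.0) in 1 fit of all 9 libraries with trend and robust moderation, two-sided, with 6 residual and a median of 5.77 prior degrees of freedom, and Benjamini-Hochberg adjustment over all 11668 genes. The loci of 2491 genes coincide with that of some other gene. The fit was tested on simulated data in which 200 of 11668 genes changed. It recovered 1.5% of log2 changes of 0.5, 77.5% of changes of 1 and 96% of changes of 2. In the data 2917 genes passed, so the cutoff set by the adjustment was less strict than in the simulation. These shares therefore do not give the recovery in the data. Failing the test does not show that a gene was unchanged. Alternatives changed the pseudocount, filter, scaling, moderation, weights, libraries, block and covariate. Figures used Python 3.11.15 with matplotlib 3.10.9, pandas 2.3.3 and numpy 2.4.6.

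The comparison, gene lists and panel were chosen with earlier results of these data known. The text names the genes with the 12 largest increases and the 12 largest decreases past the test, given a symbol, separate HC and MC ranges, no place in a cell type list and 1 FPKM or more on average in the higher diet. Also named are DES, ACTG2, MYH11 and 5 more smooth muscle genes by size of change, up to 4 members per process list by adjusted p, up to 3 per cell type list by mean FPKM, and a panel of rumen genes. AHCY, AZIN1, C1QB, CNFN, CTSL, EGR1, ERBB2, FCER1G, FOSL1, GRHL1, GRHL3, HBEGF, JUN, KLF6, KLK13, LCN2, LGALS3BP, MTAP, MTR, MVK, PAOX, SAT1, SPINK5 and SRM were chosen after their values were seen, as were genes given with lists in the figures. Some genes that these rules name are not reported here.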

Additional observations from a re-analysis of the deposited data

How the results depend on the processing

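The comparison gave 2917 genes past the test, 933 higher and 1984 lower in HC. Library weights raised this to 6590 (2530 higher, 4060 lower), and the smooth muscle covariate lowered it to 1294 (369 higher, 925 lower). The split was 1513 higher to 1319 lower genes under median-of-ratios scaling, 1553 to 1296 under quantile normalization, and rescaling to the same total left 538 higher ones. A filter at a mean of 5 FPKM, which tests fewer genes, left 2015 genes, 1306 of them lower. Leaving out 1 library gave 1619 to 4066 genes in all, 488 to 1320 higher and 1131 to 2746 lower. The total was 1801 without HC2, 1619 without HC3, 1676 without MC1, 1703 without MC2 and 4066 without LC1, and between 2320 and 2947 without each of the others. The cause of these shifts was not tested, beyond the fewer genes or libraries of some fits. The fit of HC and MC alone gave 3649 genes, rescaling to the same total 3305, and the settings not given by a total here 2679 to 2947. One of these, rescaling without muscle, ribosomal and mitochondrial genes, was chosen after seeing the data. With the replicate number as a block 3871 genes passed (1295 higher, 2576 lower). Deviations of libraries with the same number correlated at 0.450 for number 1, -0.0759 for number 2 and 0.209 for number 3, and the numbers were therefore not taken to pair the libraries. No named gene that passed changed its direction in any of these fits, but calls were less stable. Of the 224 genes that passed among those chosen by the naming rules or after their values were seen, 83 lost their call with the smooth muscle covariate. RXRA, GJB6, MCM6, TYMS, DSC2, SLC38A1 and SCD were among these. Leaving out HC3 took the call from 47, MC1 from 48, and HC2 or MC2 from 43 each. Depth could not be expressed in reads, and 3 libraries per diet limit the precision.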

Other observations

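Some of the largest differences belonged to genes without a symbol, chosen here after their values were seen. LOC102172082 stood at 188, 149 and 259 FPKM in the HC libraries and 2.196, 2.201 and 2.72 FPKM in the MC libraries, with 0.6204, 2.79 and 3.95 FPKM in LC (5.85 ± 0.38 (SE), limma adjusted p = 7.48e-05). It shares its locus with another gene and has no entry in the RefSeq table used, so its product is not named. LOC102180556, a protein-coding gene in that table, stood at 302, 240.3 and 376 FPKM in the HC libraries and 17.3, 14.6 and 17.8 FPKM in the MC libraries and 112, 153 and 159 FPKM in LC (4.11 ± 0.19 (SE), limma adjusted p = 8.63e-07). In both genes every HC library was above all other libraries, and both passed in every fit that left out 1 library and with the smooth muscle covariate.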
